A study of Mus musculus with 9 samples.

Results

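Messenger RNA of 10 collagen chains of the liver matrix was followed in livers of male C57BL/6J mice on chow, a set chosen by name from 20325 genes in the deposited tables. The set holds 5 chains of fibril-forming collagens (Col1a1, Col1a2, Col3a1, Col5a1 and Col5a2), 2 chains of the basement membrane (Col4a1 and Col4a2) and 3 chains of microfibrils or fibril surfaces (Col6a1, Col6a2 and Col14a1). It was put together after Col3a1 had been seen to be lower in livers of mice given the supplement, so the contrast of the supplemented with the plain germ-free livers is given below as values, with no test and no calls. All 10 genes were found in every table and passed the filter on low counts.

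Whole-liver RNA was sequenced from 3 groups of 3 mice. ConvD mice were born germ-free and received cecal contents of conventionally raised donors by a single gavage. GF+SCFA mice were kept germ-free, and their drinking water held 3 short-chain fatty acids that gut bacteria otherwise make, acetate at 67.5 mM, butyrate at 40 mM and propionate at 25.9 mM. GF mice stayed germ-free and received no supplement. Age is uncertain: it is 14 weeks in the design text, whereas the growth protocol places gavage at 15 weeks and dissection, 4 weeks later, at 19 weeks. Mice were caged by colonisation status, so cage and group cannot be told apart. The labels do not name the animal behind each library, and p-values therefore measure the spread between these samples.

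Collagens are triple helices of 3 chains. Type I and type III collagen, with small amounts of type V that set the fibril's width, build the fibrils of portal tracts and the capsule and the fine reticular fibres along the sinusoids. Type IV collagen forms the network of basement membranes, type VI forms beaded microfibrils around cells, and type XIV lies on fibril surfaces. In the liver the fibrillar chains are made mainly by stellate cells and portal fibroblasts, and sinusoidal endothelial cells also contribute type IV collagen. Whole liver was measured, so fewer cells of a type and less RNA per cell cannot be told apart.

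Upstream sequence is shown for 3 chains whose values are set against each other below: the type III chain Col3a1, the type I chain Col1a2 and, for the basement membrane pair, a stretch beside the start of Col4a2. The sequences are RefSeq windows of the build GRCm38.p6, on the plus strand and read 5′ to 3′. Capitals mark matches on either strand. The motifs searched were CCAAT (the box of that name), the GC box GGGCGG, the TATA box spelled TATAAA and the SMAD-type element CAGACA, none of which contains another. The Col3a1 window is chr1:45311288-45311537, the Col1a2 window is chr6:4505368-4505617, and the Col4a2 stretch is chr8:11312755-11312784.
Col3a1: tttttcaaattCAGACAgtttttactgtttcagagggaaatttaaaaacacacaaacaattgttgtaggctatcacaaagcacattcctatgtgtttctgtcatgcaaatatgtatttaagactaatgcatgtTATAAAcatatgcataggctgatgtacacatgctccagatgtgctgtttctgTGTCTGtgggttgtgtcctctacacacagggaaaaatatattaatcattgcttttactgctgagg
Col1a2: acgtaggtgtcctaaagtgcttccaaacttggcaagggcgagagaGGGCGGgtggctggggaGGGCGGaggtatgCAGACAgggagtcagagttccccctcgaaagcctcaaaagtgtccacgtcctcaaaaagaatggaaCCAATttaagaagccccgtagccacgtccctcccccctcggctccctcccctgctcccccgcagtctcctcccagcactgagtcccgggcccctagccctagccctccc
Col4a2: cgCCGCCCgaggagctccCCAATttgttgg

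The Col3a1 stretch holds a TATAAA 117 bases before the start and CAGACA 239 bases before it, and on the opposite strand another CAGACA 65 bases before it. It has no CCAAT, and the GC box is likewise not among its letters. The Col1a2 stretch holds CCAAT 109 bases before the start, GGGCGG 205 and 188 bases before it and CAGACA 175 bases before it. In the Col4a2 stretch a GGGCGG on the opposite strand lies 48 bases before the start and a CCAAT lies 32 bases before it. Windows of 300 bases were given for 7 of the 10 genes, 8 windows in all. Of these 8, 3 hold CCAAT, against 37.4% of 32851 windows of all genes, and 6 hold GGGCGG, against 35.7%. Both windows of Col6a2 are among the 6. The Col4a1 and Col4a2 windows overlap and have a GGGCGG match in common, so the 6 windows are not 6 separate genes. TATAAA stands in 1 of 8, against 13.6%, and CAGACA in 3 of 8, against 21%. A match describes letters and is not evidence of a site, and these shares carry no test.

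The genes also lie in pairs. Col3a1 and Col5a2 are neighbours on chromosome 1, Col6a1 and Col6a2 are neighbouring coding genes on chromosome 10, and Col4a1 and Col4a2 start next to each other on chromosome 8 in opposite directions. The 5′ ends of the Col4a1 and Col4a2 gene models overlap in GRCm38.p6. Whether counting used strand is not given in the sources used here, and reads from that overlap could be shared between both genes. Col1a1 is on chromosome 11, Col1a2 on 6, Col5a1 on 2 and Col14a1 on 15.

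Depth was 18193071 to 21627696 expected counts per liver. The 10 chains together held 0.0173% to 0.0197% of all counts in ConvD livers, 0.0105% to 0.0115% in GF+SCFA livers and 0.0143% to 0.0157% in GF livers. Expected counts of the lowest chains were small, which widens their errors. Col1a1 had 37 to 81 counts in ConvD livers, 26 to 28 in GF+SCFA livers and 57 to 103 in GF livers.

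Levels are given as TPM, transcript abundance scaled by the authors to gene length and library size, on which chains can be set side by side. Col14a1, which coats fibrils, had the highest TPM of the 10 in every group and lay apart from the next chain in each. Its mean was 15.7 ± 1.77 TPM in ConvD livers, 9.53 ± 0.759 TPM in GF+SCFA livers and 12.0 ± 0.51 TPM in GF livers (SD, n = 3 each). Col3a1, the single chain of type III collagen, and Col4a1 followed with overlapping ranges. Col3a1 had the higher mean of the pair in ConvD and GF livers and Col4a1 in GF+SCFA livers. Col4a2 came next in each group. Its range overlapped that of the chain above it in ConvD and GF+SCFA livers and lay apart from it in GF livers. Col1a2 and then Col6a1 followed, with overlapping ranges. The last 4 places went to Col5a1, Col6a2, Col1a1 and Col5a2, most of whose neighbours overlapped. Col5a2 was the lowest chain in ConvD and GF livers, and Col1a1, at 0.46 ± 0.01 TPM, was the lowest in GF+SCFA livers.

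**Figure D1:**
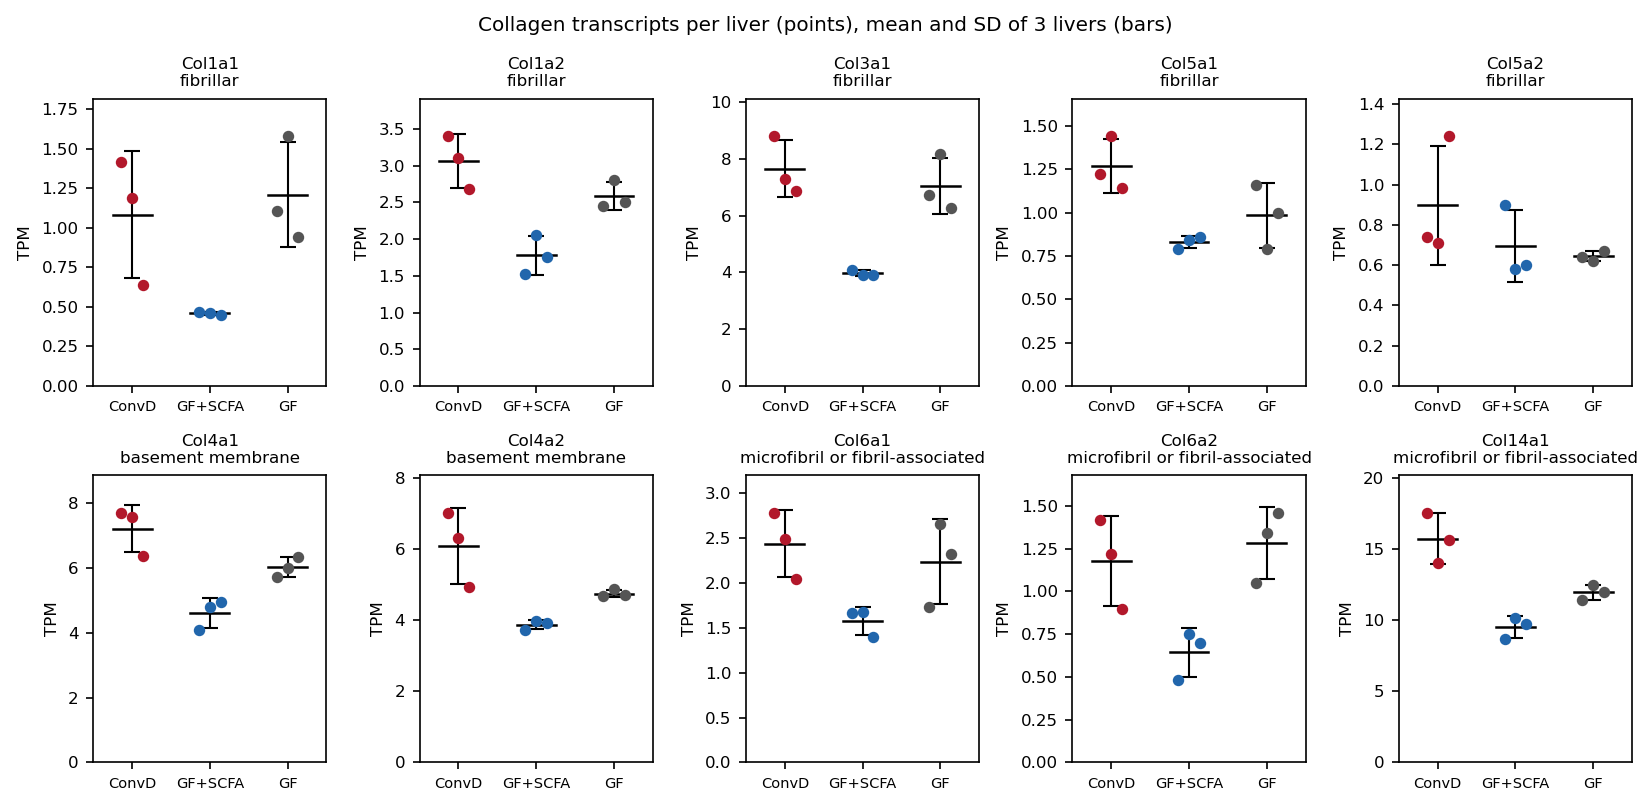
TPM of the 10 collagen genes in each liver, with 1 point per liver and bars for the mean and SD of the 3 livers of a group (ConvD, GF+SCFA and GF, each panel with its own axis from 0). The 3 GF+SCFA livers sit between 3.90 and 4.09 TPM for Col3a1, below all ConvD and GF livers, while for Col5a2 the GF+SCFA livers overlap with both other groups.

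ConvD against GF asks which chains differ after colonisation. In it Col14a1 was 1.25-fold higher in colonised livers, and none of the other 9 chains passed the test. The fibrillar chains of type I and type III overlapped between colonised and germ-free livers. Of the 10 chains 1 was called higher and 0 lower, against 5.93% and 6.9% of the 12037 genes tested. DESeq2 gave the same counts, and at an unadjusted p under 0.05 edgeR gave 3 higher and 0 lower. Called here means an adjusted p under 0.05 in edgeR's quasi-likelihood test over all these genes. The GF livers of this comparison also stand in the contrast from which the set was chosen.

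Col14a1 stood at 17.56, 14.03 and 15.65 TPM in the ConvD livers and at 11.45, 12.47 and 11.97 TPM in the GF livers. Every ConvD liver lay above every GF liver. The fitted log2 fold change was 0.32 (SE 0.09, 95% interval 0.14 to 0.51, edgeR adjusted p = 0.0237). The log2 ratio of mean TPM was 0.40, somewhat larger than the fitted value. The call did not hold without ConvD replicate 1 (edgeR adjusted p = 0.0922), without ConvD replicate 3 (edgeR adjusted p = 0.0601), without GF replicate 1 (edgeR adjusted p = 0.0801) or without GF replicate 3 (edgeR adjusted p = 0.0667). Over 18 alternatives its adjusted p ranged from 0.0082 to 0.0922, and 14 kept the call.

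The basement membrane chains Col4a1 and Col4a2, which assemble into 1 trimer, had fitted values above 0 in ConvD livers but did not pass the test. Col4a1 had 7.70, 7.58 and 6.37 TPM in the ConvD livers and 5.71, 6.01 and 6.33 TPM in the GF livers. The groups did not overlap, but the lowest ConvD liver and the highest GF liver were nearly equal. Its log2 fold change was 0.19 (SE 0.09, interval 0.01 to 0.38, edgeR adjusted p = 0.163). Col4a2 had 7.01, 6.29 and 4.93 TPM in the ConvD livers, against 4.67, 4.87 and 4.69 TPM in the GF livers, where the 3 GF values lay close together. Its fitted log2 fold change was 0.28 (SE 0.10, interval 0.07 to 0.50, edgeR adjusted p = 0.0801). On the CPM scale (counts relative to the TMM-scaled library total) the Col4a2 groups overlapped, although the TPM values did not. Col4a2 passed the threshold without ConvD replicate 3 (edgeR adjusted p = 0.0169), in a range of 0.0169 to 0.27 over 18 alternatives, 3 of which called it.

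Among the fibrillar chains Col3a1 had 8.80, 7.31 and 6.87 TPM in the ConvD livers and 6.73, 8.16 and 6.28 TPM in the GF livers. The groups were interleaved, and the log2 fold change was 0.04 (SE 0.12, interval -0.22 to 0.29, edgeR adjusted p = 0.874). Col1a1, the chain present in a pair of copies in type I collagen, had 1.42, 1.19 and 0.64 TPM in the ConvD livers and 1.11, 1.58 and 0.94 TPM in the GF livers. ConvD replicate 3 was the lowest of these 6 livers and GF replicate 2 the highest. The log2 fold change was -0.25 (SE 0.26, interval -0.81 to 0.31, edgeR adjusted p = 0.573). Its partner Col1a2 had 3.40, 3.11 and 2.68 TPM in the ConvD livers and 2.45, 2.80 and 2.51 TPM in the GF livers. These groups overlapped by a single liver on each side, with a log2 fold change of 0.17 (SE 0.13, interval -0.10 to 0.44, edgeR adjusted p = 0.416).

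The type V chains were low in both groups. Col5a1 had 1.22, 1.44 and 1.14 TPM in the ConvD livers and 1.16, 0.79 and 1.00 TPM in the GF livers, and the groups overlapped (log2 fold change 0.30, SE 0.15, interval -0.02 to 0.62, edgeR adjusted p = 0.198). Col5a2 had 0.74, 0.71 and 1.24 TPM in the ConvD livers and 0.64, 0.62 and 0.67 TPM in the GF livers. All 3 ConvD values lay above the GF values, with ConvD replicate 3 well above the other ConvD livers. The log2 fold change of Col5a2 was 0.42 (SE 0.25, interval -0.12 to 0.96, edgeR adjusted p = 0.292).

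Both type VI chains overlapped between ConvD and GF livers. Col6a1 had 2.78, 2.49 and 2.04 TPM in the ConvD livers and 1.73, 2.66 and 2.32 TPM in the GF livers (log2 fold change 0.05, SE 0.16, interval -0.31 to 0.40, edgeR adjusted p = 0.888). Col6a2 had 1.42, 1.22 and 0.90 TPM in the ConvD livers and 1.05, 1.34 and 1.46 TPM in the GF livers (log2 fold change -0.20, SE 0.20, interval -0.63 to 0.23, edgeR adjusted p = 0.556). Over all 10 chains the groups did not overlap, with ConvD higher, in 3 (Col14a1, Col4a1 and Col5a2), against 15.7% of all genes tested, and with ConvD lower in 0, against 15.9%. Fitted values were above 0 in 8 chains and below 0 in 2, against 50.5% and 49.5% of all genes. The median log2 fold change of the 10 was 0.18, against 0 over all genes tested.

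ConvD against GF+SCFA sets colonised livers against germ-free livers that received the acids. Col3a1 was noted for its values in the GF+SCFA livers, so it is described here and left out of the count of calls. Of the other 9 chains 8 were called higher in ConvD and 0 lower, against 9.44% and 8.97% of all genes tested. At an unadjusted p under 0.05 edgeR gave the same counts, and DESeq2 called 7 higher and 0 lower. Both basement membrane chains, all 3 microfibril and fibril-surface chains and 3 of the 4 fibrillar chains counted were among the 8, and Col5a2 did not pass. The count was 4 without GF+SCFA replicate 1, GF+SCFA replicate 3 or ConvD replicate 2, and 5 without GF+SCFA replicate 2 or ConvD replicate 1. These livers also stand in the contrast from which the set was chosen, so the count is not independent of that choice.

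Col14a1 stood at 17.56, 14.03 and 15.65 TPM in the ConvD livers and at 8.69, 10.17 and 9.72 TPM in the GF+SCFA livers. The groups were well apart, with a 1.55-fold difference (log2 fold change 0.64, SE 0.09, interval 0.45 to 0.82, edgeR adjusted p = 0.000314). Col4a1 had 7.70, 7.58 and 6.37 TPM in the ConvD livers and 4.08, 4.80 and 4.94 TPM in the GF+SCFA livers, and was 1.47-fold higher (log2 fold change 0.56, SE 0.09, interval 0.37 to 0.75, edgeR adjusted p = 0.000981). Col4a2 had 7.01, 6.29 and 4.93 TPM in the ConvD livers and 3.72, 3.96 and 3.91 TPM in the GF+SCFA livers. No GF+SCFA liver reached the lowest ConvD liver for either type IV chain. The Col4a2 difference was 1.48-fold (log2 fold change 0.56, SE 0.10, interval 0.34 to 0.78, edgeR adjusted p = 0.00218), so both chains of the trimer differed by nearly the same factor.

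Col3a1 stood at 8.80, 7.31 and 6.87 TPM in the ConvD livers and at 4.09, 3.90 and 3.92 TPM in the GF+SCFA livers. The lowest ConvD liver lay well above the highest GF+SCFA liver, and the fitted difference was 1.81-fold (log2 fold change 0.85, SE 0.12). Col1a2 had 3.40, 3.11 and 2.68 TPM in the ConvD livers and 1.52, 2.05 and 1.76 TPM in the GF+SCFA livers. It was 1.62-fold higher without overlap (log2 fold change 0.69, SE 0.13, interval 0.41 to 0.97, edgeR adjusted p = 0.00282). Col1a1 had 1.42, 1.19 and 0.64 TPM in the ConvD livers and 0.47, 0.46 and 0.45 TPM in the GF+SCFA livers. The GF+SCFA livers were nearly identical while the ConvD livers spread widely, and the fitted difference was 2.21-fold (log2 fold change 1.14, SE 0.30, interval 0.50 to 1.79, edgeR adjusted p = 0.0188). Col1a1 was called in 4 of 9 fits that left out a single liver, and its adjusted p was highest, at 0.0766 in edgeR, without ConvD replicate 1.

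Col5a1 had 1.22, 1.44 and 1.14 TPM in the ConvD livers and 0.79, 0.84 and 0.86 TPM in the GF+SCFA livers, with no overlap and a 1.44-fold difference (log2 fold change 0.53, SE 0.15, edgeR adjusted p = 0.0279). Col6a1 had 2.78, 2.49 and 2.04 TPM in the ConvD livers and 1.66, 1.68 and 1.40 TPM in the GF+SCFA livers, a 1.45-fold difference (log2 fold change 0.54, SE 0.17, edgeR adjusted p = 0.0439). Col6a2 had 1.42, 1.22 and 0.90 TPM in the ConvD livers and 0.48, 0.75 and 0.70 TPM in the GF+SCFA livers, a 1.71-fold difference (log2 fold change 0.78, SE 0.22, edgeR adjusted p = 0.026). These 3 chains rested on fewer reads than type III or type IV, and each lost its call in some fits without 1 liver. Col5a1 was called in 5 of 9 such fits, with the highest edgeR adjusted p, 0.114, without ConvD replicate 2. Col6a1 was called in 4 of 9, with the highest edgeR adjusted p, 0.149, without GF+SCFA replicate 3. For Col6a2 the call held in 5 of 9, and the highest edgeR adjusted p, 0.101, was without GF+SCFA replicate 1. Col1a2, Col4a1, Col4a2 and Col14a1 passed in all 9.

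Col5a2 had 0.74, 0.71 and 1.24 TPM in the ConvD livers and 0.90, 0.58 and 0.60 TPM in the GF+SCFA livers. These groups were interleaved, and the difference did not pass the test (log2 fold change 0.29, SE 0.25, interval -0.24 to 0.83, edgeR adjusted p = 0.442). The interval reaches past the size of the Col5a1 difference, so it does not show that the type V chains differ from each other. Over the 10 chains, Col3a1 included, the groups did not overlap, with ConvD higher, in 9, against 19% of all genes, and with ConvD lower in 0, against 18.9%. Fitted values were above 0 in 10 chains and below 0 in 0, against 51% and 49% of all genes. The median log2 fold change was 0.60, against 0.01 over all genes tested. It was 0.69 for the 5 fibrillar chains, 0.56 for the 2 basement membrane chains and 0.64 for the other 3. Col3a1, noted for its values in the GF+SCFA livers, stands in the counts over 10 chains and in the fibrillar median. Nothing is therefore read from these shares and medians.

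**Figure D2:**
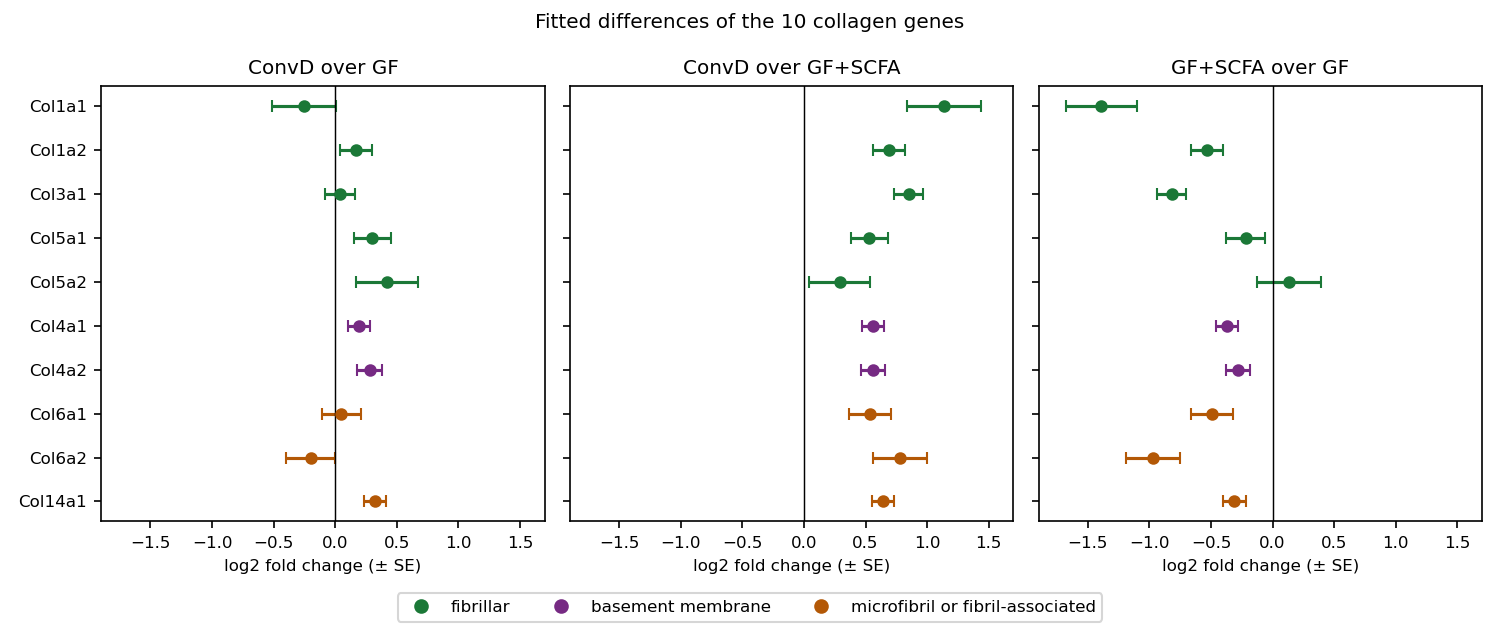
Fitted log2 fold changes (points) with their standard errors (bars) for the 10 collagen genes in ConvD over GF, ConvD over GF+SCFA and GF+SCFA over GF, coloured by class. The chains lie on both sides of 0 in the first panel, all lie above 0 in the second, and all but Col5a2 lie below 0 in the third, which is shown without a test.

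GF+SCFA against GF is the contrast that drew attention to Col3a1, and its values are given as they stand. In it 9 of the 10 chains had lower fitted values in supplemented livers, where 51.3% of all genes tested were lower and 48.7% higher. In 8 of them the groups did not overlap, against 8.86% of all genes tested, and in 0 of the 10 did supplemented livers lie above without overlap, against 9.06%. The rule used this contrast, and nothing is read from these shares.

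Col3a1 had 4.09, 3.90 and 3.92 TPM in the GF+SCFA livers and 6.73, 8.16 and 6.28 TPM in the GF livers, a log2 fold change of -0.82 (SE 0.12). The supplemented livers were within a narrow band, and the GF livers were spread more widely above it. In expected counts this is 271, 282 and 268 in the GF+SCFA livers and 461, 630 and 453 in the GF livers. Col1a1 had 0.47, 0.46 and 0.45 TPM in the GF+SCFA livers and 1.11, 1.58 and 0.94 TPM in the GF livers. Its log2 fold change of -1.39 (SE 0.29) was the furthest from 0 among the 10. Col1a2, the other chain of type I, had 1.52, 2.05 and 1.76 TPM in the GF+SCFA livers and 2.45, 2.80 and 2.51 TPM in the GF livers (log2 fold change -0.53, SE 0.13).

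Of the type VI chains, Col6a2 had 0.48, 0.75 and 0.70 TPM in the GF+SCFA livers and 1.05, 1.34 and 1.46 TPM in the GF livers (log2 fold change -0.97, SE 0.22). Col6a1 had 1.66, 1.68 and 1.40 TPM in the GF+SCFA livers and 1.73, 2.66 and 2.32 TPM in the GF livers (log2 fold change -0.49, SE 0.17). For Col6a1 the gap between the groups was small, since GF replicate 1 lay just above the highest GF+SCFA liver. Col14a1 had 8.69, 10.17 and 9.72 TPM in the GF+SCFA livers and 11.45, 12.47 and 11.97 TPM in the GF livers (log2 fold change -0.31, SE 0.09).

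The basement membrane chains come next. Col4a1 had 4.08, 4.80 and 4.94 TPM in the GF+SCFA livers and 5.71, 6.01 and 6.33 TPM in the GF livers (log2 fold change -0.37, SE 0.09). Col4a2 had 3.72, 3.96 and 3.91 TPM in the GF+SCFA livers and 4.67, 4.87 and 4.69 TPM in the GF livers (log2 fold change -0.28, SE 0.10). In both, all supplemented livers lay below all plain germ-free livers. The type V chains overlapped between these groups, with a log2 fold change of -0.22 (SE 0.16) for Col5a1 and 0.13 (SE 0.26) for Col5a2. The median log2 fold change was -0.53 for the fibrillar chains, -0.32 for the basement membrane chains and -0.49 for the other 3, and -0.43 for all 10, against -0.01 over all genes tested.

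Fibrillar chains were set against basement membrane chains within each liver, as the summed TPM of the 5 fibrillar chains over that of the 2 type IV chains. The ratio was 1.06, 0.992 and 1.11 in the ConvD livers, 0.996, 0.894 and 0.858 in the GF+SCFA livers and 1.16, 1.28 and 1.03 in the GF livers. The 5 fibrillar and the 2 type IV chains of this set thus had about equal summed TPM in all 9 livers. This does not hold for all collagens of either kind, since chains outside the set are not in the sums. Col27a1, a fibril-forming chain, had mean TPM of 5.77 in ConvD, 14.2 in GF+SCFA and 9.29 in GF livers. Col5a3, a type V chain, had 6.7, 3.1 and 2.89 TPM in the same order. The highest GF+SCFA ratio was just above the lowest ConvD ratio, and all 3 GF ratios lay above all GF+SCFA ratios. Means were 1.05 ± 0.0592 in ConvD livers, 0.916 ± 0.0716 in GF+SCFA livers and 1.16 ± 0.125 in GF livers (SD, n = 3 each). The summed fibrillar TPM alone was 15.6, 13.8 and 12.6 in the ConvD livers, 7.77, 7.83 and 7.59 in the GF+SCFA livers and 12.1, 14.0 and 11.4 in the GF livers. The summed type IV TPM was 14.7, 13.9 and 11.3 in the ConvD livers, 7.80, 8.76 and 8.85 in the GF+SCFA livers and 10.4, 10.9 and 11 in the GF livers. These sums are led by Col3a1 and by Col4a1. Col3a1 was noted for its low values in the GF+SCFA livers. Nothing is therefore read from where the GF+SCFA livers stand on the fibrillar sum or on this ratio.

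Chains of a single trimer did not stand in the ratio of the protein. Type I collagen holds more of the Col1a1 product than of the Col1a2 product, yet Col1a1 had the lower TPM in all 9 livers. Col1a1 over Col1a2 was 0.418, 0.383 and 0.239 in the ConvD livers, 0.309, 0.224 and 0.256 in the GF+SCFA livers and 0.453, 0.564 and 0.375 in the GF livers. The GF+SCFA ratios lay below the GF ratios, and the ConvD ratios spanned part of each. Col4a1 over Col4a2 was 1.10, 1.21 and 1.29 in the ConvD livers, 1.10, 1.21 and 1.26 in the GF+SCFA livers and 1.22, 1.23 and 1.35 in the GF livers. These values overlapped between all 3 groups. Col6a1 over Col6a2 was 1.96, 2.04 and 2.27 in the ConvD livers, 3.46, 2.24 and 2.00 in the GF+SCFA livers and 1.65, 1.99 and 1.59 in the GF livers. GF+SCFA replicate 1, the liver with the fewest Col6a2 counts, was the highest of the 9. Ratios of TPM carry any error in the gene lengths the authors used.

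**Figure D3:**
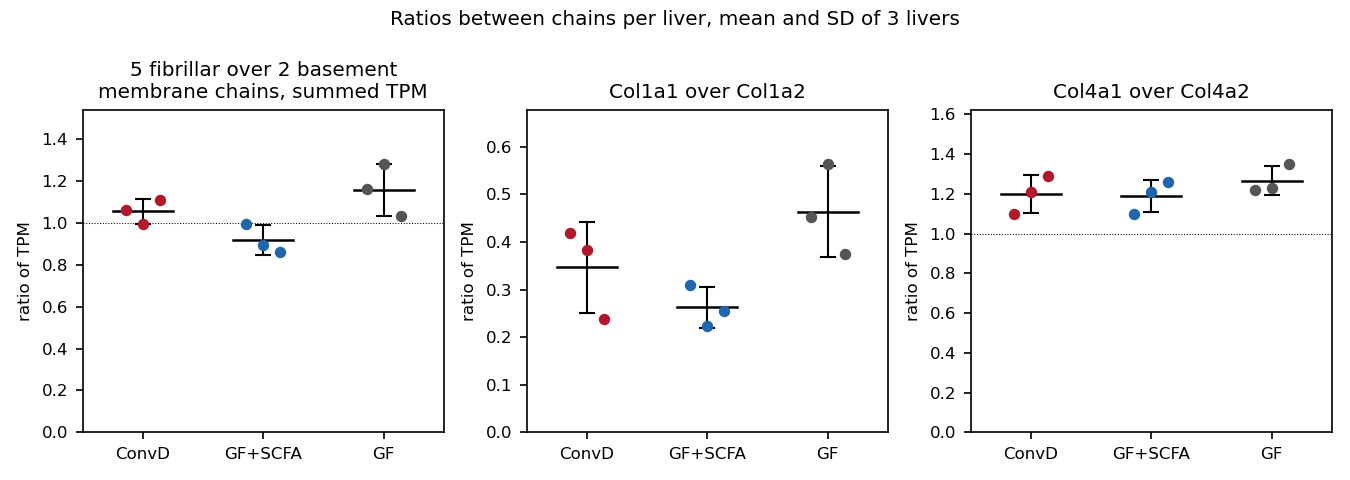
Ratios of TPM within each liver for 3 pairs, with 1 point per liver and bars for the mean and SD of ConvD, GF+SCFA and GF; the dotted line marks a ratio of 1. Fibrillar over basement membrane TPM is near 1 in all 9 livers, and Col1a1 over Col1a2 is below 1 in every liver. The fibrillar ratio is lowest on average in GF+SCFA, the group in which Col3a1, its largest part, was noted as low.

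The other collagen genes were read in the same fits. Of 34 listed, 33 were in the tables and 13 passed the filter on low counts, and Col6a3 is not analysed here. In colonised against GF livers 2 of the 13 were called higher and 2 lower, against 5.93% and 6.9% of all genes tested. Their median log2 fold change was -0.12. Col5a3, a type V chain, averaged 25.4 ± 4.67 CPM in ConvD livers and 11.5 ± 0.992 CPM in GF livers (2.21-fold, edgeR adjusted p = 0.00017). Col15a1, a basement membrane zone collagen, averaged 5.58 ± 0.69 CPM in ConvD livers and 2.64 ± 0.375 CPM in GF livers (2.12-fold, edgeR adjusted p = 0.00126). Both calls held in all 9 fits that left out a single liver. Col4a3, a type IV chain best known from the kidney, was lower at 1.95 ± 0.395 CPM in ConvD livers, against 3.23 ± 0.591 CPM in GF livers (edgeR adjusted p = 0.0362). Col27a1, a fibril-forming chain, was lower at 27.5 ± 2.34 CPM in ConvD livers, against 46.1 ± 12.4 CPM in GF livers (edgeR adjusted p = 0.0397). These decreases were called in 4 and 2 of the 9 single-liver fits.

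Among type V chains Col5a3 was thus called in ConvD against GF and Col5a1 and Col5a2 were not, and the difference between these chains was not tested. Against GF+SCFA livers 4 of the 13 were called higher and 1 lower, against 9.44% and 8.97% of all genes tested. Col5a3 was 2.03-fold higher (edgeR adjusted p = 0.000187) and Col15a1 2.3-fold higher (edgeR adjusted p = 0.000379). Col27a1 averaged 27.5 ± 2.34 CPM in ConvD livers and 72.5 ± 6.75 CPM in GF+SCFA livers (edgeR adjusted p = 0.00221). Both contrasts use the same ConvD livers. Col18a1, which hepatocytes make in quantity, carried most of the liver's collagen TPM, and is named here after its values were seen. It had 203 ± 21.8 TPM in ConvD livers, 179 ± 3.46 TPM in GF+SCFA livers and 198 ± 17 TPM in GF livers (SD, n = 3 each). The 10 chains made up 17.4%, 17.2% and 17.4% of all collagen TPM in the ConvD livers, 11.4%, 12.5% and 12.5% in the GF+SCFA livers and 15.3%, 15.1% and 15.0% in the GF livers. These shares did not overlap between any pair of groups. They include Col3a1, noted for its values in the GF+SCFA livers, so nothing is read from where that group stands.

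**Figure D4:**
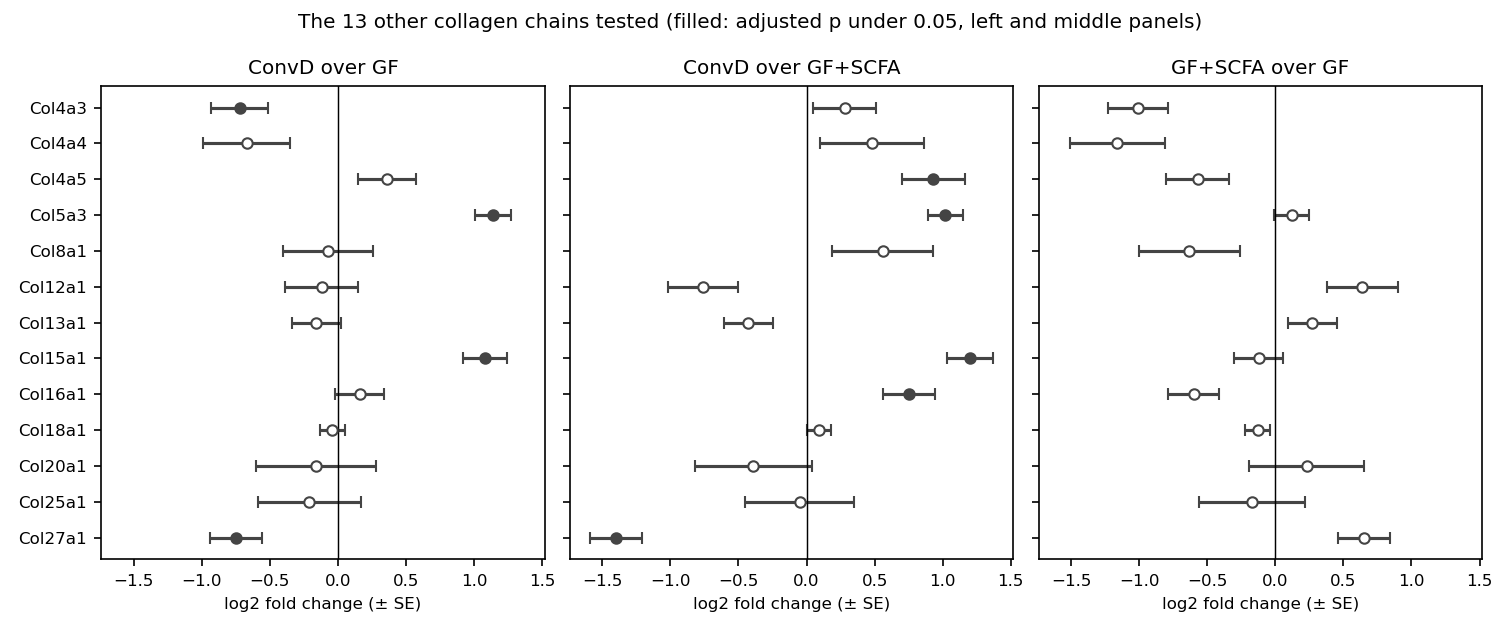
Fitted log2 fold changes (points) with standard errors (bars) of the 13 other collagen genes that passed the filter, with filled points where the adjusted p is under 0.05 in either ConvD panel, for ConvD over GF, ConvD over GF+SCFA and GF+SCFA over GF. Col5a3 and Col15a1 lie near 1 in both ConvD panels, and Col27a1 and Col4a3 lie below 0 in ConvD over GF.

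Genes that act on collagen were followed in 7 more lists. Together with the other collagen genes these 8 lists had 135 genes tested, of which 15 were called in ConvD against GF, 7 higher and 8 lower. That is 11.1%, against 12.8% of all genes tested in either direction. The count fell to 7 or 8 without GF replicate 1, GF replicate 2 or ConvD replicate 1. It was 9 without ConvD replicate 3.

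Collagen folding and secretion had 0 of 20 genes called higher and 1 lower. Sec24d, a coat protein of the vesicles that carry procollagen out of the endoplasmic reticulum, fell in ConvD (log2 fold change -0.38, edgeR adjusted p = 0.00851). The prolyl and lysyl hydroxylases and chaperones of this list did not pass in edgeR. At an unadjusted p under 0.05 the list had 0 higher and 5 lower, and DESeq2 called 0 higher and 2 lower. In propeptide cleavage and crosslinking, 1 of 11 was higher and 1 lower. Tgm2, a crosslinking transglutaminase, rose (0.38, edgeR adjusted p = 0.00728), and Bmp1, the protease that removes procollagen C-propeptides, fell (-0.22, edgeR adjusted p = 0.0359). The Tgm2 call held in all 9 single-liver fits and the Bmp1 call in 2.

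Among basement membrane partners, 2 of 19 were higher and 1 lower. Nid2, a nidogen that links laminin to type IV collagen, rose (log2 fold change 0.54, edgeR adjusted p = 0.0422), as did Lamb1, a laminin beta chain (0.41, edgeR adjusted p = 0.0424). Lama3, a laminin alpha chain, fell (-0.70, edgeR adjusted p = 0.00731). The Nid2 call held in 3 and the Lamb1 call in 1 of 9 single-liver fits, while that of Lama3 held in all 9. Fibril-associated matrix had 0 of 25 higher (0 at an unadjusted p under 0.05 and 0 by DESeq2) and 1 lower, which was Tnxb, a tenascin that binds fibrils (-0.63, edgeR adjusted p = 0.0211). Collagen degradation and its inhibitors had 1 of 13 higher and 1 lower. Reck, a membrane inhibitor of matrix metalloproteinases, rose (0.57, edgeR adjusted p = 0.0377, called in 2 of 9 single-liver fits), and Timp3, a matrix-bound inhibitor of the same enzymes, fell (-0.53, edgeR adjusted p = 0.00172, called in all 9).

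Signalling through TGF-beta and PDGF, the main fibrogenic pathways, had 0 of 28 genes higher (3 at an unadjusted p under 0.05 and 0 by DESeq2) and 1 lower. This was Ltbp4, which holds latent TGF-beta in the matrix (log2 fold change -0.30, edgeR adjusted p = 0.0328, called in 5 of 9 single-liver fits). Collagen receptors had 1 of 6 higher and 0 lower, Lair1, an inhibitory receptor of leukocytes (0.86, edgeR adjusted p = 0.028, called in 5 of 9 single-liver fits). Between ConvD and GF+SCFA livers 24 of the 135 genes were called, 19 higher and 5 lower, which is 17.8%, against 18.4% of all genes tested. The count was 12 without GF+SCFA replicate 2 and 15 without GF+SCFA replicate 1 or ConvD replicate 1. Fibril-associated matrix had 4 of 25 higher and 0 lower, basement membrane partners 4 of 19 higher and 1 lower, and TGF-beta and PDGF signalling 3 of 28 higher and 0 lower. Folding and secretion had 0 of 20 higher and 1 lower, cleavage and crosslinking 2 of 11 higher and 1 lower, degradation 1 of 13 higher and 1 lower, and receptors 1 of 6 higher and 0 lower.

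For GF+SCFA against GF, signs are given as a description. Fitted values were below 0 in 24 of 28 TGF-beta and PDGF genes (median log2 fold change -0.19), 21 of 25 fibril-associated matrix genes (-0.17), 15 of 19 basement membrane partners (-0.14), 11 of 13 degradation genes (-0.14) and 5 of 6 receptors (-0.13). They were nearer to even in the other collagen genes, 8 of 13 (-0.13), in folding and secretion, 12 of 20 (-0.06), and in cleavage and crosslinking, 6 of 11 (-0.03). Of all genes tested, 51.3% were below 0.

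Markers of the cells that make collagen were read beside these results. Lrat, the retinol esterifying enzyme that defines stellate cells, had 6.90 ± 0.613 TPM in ConvD livers, 7.22 ± 2.3 TPM in GF+SCFA livers and 6.68 ± 0.97 TPM in GF livers (SD, n = 3 each). The summed TPM of the 19 stellate markers was 183 to 212 in ConvD livers, 168 to 187 in GF+SCFA livers and 166 to 211 in GF livers. The groups overlapped on this sum, whose largest part was Ecm1. Ecm1 had 81.76, 80.27 and 61.51 TPM in the ConvD livers and 67.89, 75.59 and 69.16 TPM in the GF+SCFA livers. In the GF livers it had 70.87, 61.64 and 82.47 TPM. Without Ecm1 every ConvD liver lay above every GF+SCFA liver on the sum, while ConvD and GF livers overlapped. Of the 18 stellate markers tested, 1 was called higher and 0 lower in ConvD against GF, against 5.93% and 6.9% of all genes tested. The marker called higher was Ngfr, a neurotrophin receptor (log2 fold change 0.67, edgeR adjusted p = 0.0263, called in 6 of 9 single-liver fits). Against GF+SCFA livers 4 of 18 were higher and 0 lower, against 9.44% and 8.97% of all genes tested.

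Thy1, a marker of portal fibroblasts, had 0.91 ± 0.262 TPM in ConvD livers, 0.573 ± 0.0702 TPM in GF+SCFA livers and 0.743 ± 0.22 TPM in GF livers. The 14 portal fibroblast markers summed to 24.1 to 29.0 TPM in ConvD livers, 18.4 to 19.2 TPM in GF+SCFA livers and 18.7 to 21.4 TPM in GF livers. The ConvD livers thus lay above the others on this sum, whose largest part was Gas6. Gas6 had 17.15, 17.12 and 13.19 TPM in the ConvD livers and 11.01, 11.23 and 10.33 TPM in the GF+SCFA livers. In the GF livers it had 9.82, 11.36 and 11.74 TPM. Without Gas6 the ConvD livers still lay above the others on the sum, and all GF+SCFA livers lay below all GF livers. Of the 10 portal fibroblast markers tested, 1 was called higher and 0 lower in ConvD against GF, against 5.93% and 6.9% of all genes tested. This was Gas6, a ligand of TAM receptors (log2 fold change 0.46, edgeR adjusted p = 0.00922). In ConvD against GF+SCFA 2 of 10 were higher and 0 lower, against 9.44% and 8.97% of all genes tested. Acta2, smooth muscle actin and a mark of activated myofibroblasts, had 1.30 ± 0.535 TPM in ConvD livers, 1.59 ± 0.604 TPM in GF+SCFA livers and 1.04 ± 0.203 TPM in GF livers. The 10 smooth muscle and myofibroblast markers summed to 26.4 to 30.0 TPM in ConvD livers, 29.3 to 31.7 TPM in GF+SCFA livers and 28.7 to 30.8 TPM in GF livers. Of 7 tested, 0 were called higher and 1 lower in ConvD against GF, against 5.93% and 6.9% of all genes tested. The lower one was Mylk, a myosin kinase (-0.37, edgeR adjusted p = 0.0146, called in 6 of 9 single-liver fits).

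The lowest mean summed TPM stood in the GF+SCFA livers for the 10 chains and for most lists. Folding and secretion, smooth muscle and myofibroblast, and macrophage genes were the exceptions. TGF-beta and PDGF genes summed to 100 to 107 TPM in GF+SCFA livers, 116 to 129 in ConvD and 110 to 128 in GF livers. Markers of bile duct epithelium and mesothelium also had their lowest summed TPM in the GF+SCFA livers. Their summed TPM over 14 genes was 81.7, 68.5 and 46.6 in the ConvD livers, 33.1, 32.4 and 28.8 in the GF+SCFA livers and 54.3, 54.6 and 54.3 in the GF livers, and most of it was Spp1, osteopontin. Without Spp1 the sum was 10.1, 8.11 and 4.76 TPM in the ConvD livers, 4.56, 4.55 and 4.49 TPM in the GF+SCFA livers and 6.97, 8.15 and 9.31 TPM in the GF livers. All GF+SCFA livers were below all ConvD and GF livers on both sums, and ConvD replicate 3 lay below the GF livers on both, unlike for the 10 chains. All 8 tested markers had, in GF+SCFA against GF, fitted values below 0, 7 of them without overlap, with a median of -0.89. Of all genes tested, 51.3% were below 0 and 8.86% lay lower without overlap, with a median of -0.01. The rule used this contrast, and nothing is read from these values. Of the 8 markers tested, 1 was called higher in ConvD against GF+SCFA, against 9.44% of all genes tested. This was Spp1 (log2 fold change 1.01, edgeR adjusted p = 0.0012). Against GF livers 0 of 8 were called by edgeR and 0 by DESeq2, and at an unadjusted p under 0.05 there were 0 higher and 1 lower. Krt19, the keratin that defines bile duct cells, had 1.08 ± 0.344 TPM in ConvD livers, 0.89 ± 0.355 TPM in GF+SCFA livers and 1.68 ± 0.237 TPM in GF livers. Their part in the collagen values was not tested.

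Sinusoidal endothelial markers summed to 279 to 307 TPM in ConvD livers, 262 to 287 TPM in GF+SCFA livers and 250 to 309 TPM in GF livers, and Stab2, their scavenger receptor, had 9.09 ± 0.685 TPM in ConvD livers, 8.13 ± 0.301 TPM in GF+SCFA livers and 9.46 ± 0.395 TPM in GF livers. Of 18 tested, 0 were higher and 1 was lower in ConvD against GF, against 5.93% and 6.9% of all genes tested. The lower one was Lyve1, a hyaluronan receptor (log2 fold change -0.85, edgeR adjusted p = 0.0359, called in 2 of 9 single-liver fits). Macrophage markers had 8 of 12 called higher and 0 lower in ConvD against GF, against 5.93% and 6.9% of all genes tested. The median log2 fold change of the list was 0.64, and the calls held in 4 to 9 of the 9 single-liver fits. Against GF+SCFA livers 3 of the 12 macrophage markers were higher and 0 lower, against 9.44% and 8.97% of all genes tested. Their summed TPM was 488 to 677 in ConvD livers, 343 to 422 in GF+SCFA livers and 298 to 418 in GF livers, so colonised livers lay above all others. Alb, the hepatocyte product, had 69400 ± 11900 TPM in ConvD livers, 60700 ± 5240 TPM in GF+SCFA livers and 65900 ± 8980 TPM in GF livers. Hepatocyte markers had 1 of 11 higher and 3 lower in ConvD against GF, against 5.93% and 6.9% of all genes tested. Of 5 blood cell markers tested 0 were called by edgeR in that comparison, 2 were called higher by DESeq2 and 4 were higher at an unadjusted p under 0.05. Their summed TPM was 653, 2540 and 1550 in the ConvD livers, 382 to 636 in the GF+SCFA livers and 493 to 696 in the GF livers. What macrophages or blood contribute to the collagen values was not tested. None of the defining markers named was at 0 in any group.

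**Figure D5:**
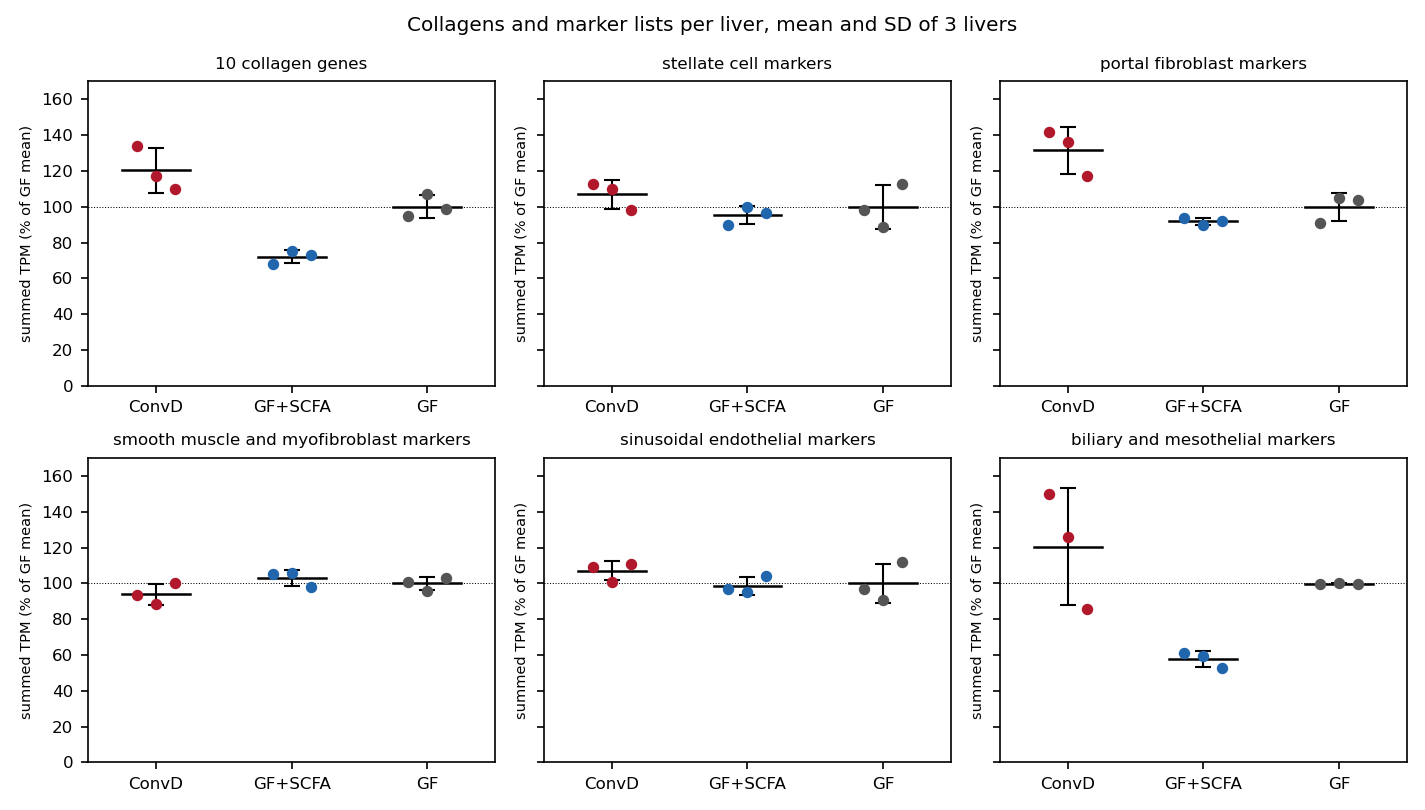
Summed TPM of the 10 collagen genes and of 5 marker lists of liver cell types, as a percentage of the GF mean (dotted line), with 1 point per liver and bars for the mean and SD of ConvD, GF+SCFA and GF. The sum of the 10 collagen genes and the biliary and mesothelial sum are lowest in the 3 GF+SCFA livers, whereas the stellate, smooth muscle and sinusoidal endothelial sums overlap between the groups. Ecm1 is the largest part of the stellate sum, and Gas6 of the portal fibroblast sum. The collagen sum includes Col3a1, which was noted for its low values in GF+SCFA livers.

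The summed TPM of the 10 chains was 52.0, 45.4 and 42.5 in the ConvD livers, 26.4, 29.2 and 28.3 in the GF+SCFA livers and 36.7, 41.3 and 38.2 in the GF livers. The 3 groups did not overlap on this sum, whose largest part is Col14a1. The sum includes Col3a1, and the set was put together after Col3a1 had been seen to be lower in GF+SCFA livers. Nothing is therefore read from where those livers stand on it.

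Likeness between genes was read as the Pearson correlation of log2 CPM over the 9 livers, as a description. The points share libraries, depth and the 3 groups, and 9896 genes with a mean count of at least 50 were ranked. The 5 genes most like Col3a1 were Rassf8 (r = 0.967, Spearman's rho = 0.95), Depdc5 (0.964, 0.817), Sipa1l2 (0.958, 0.80), Pml (0.957, 0.95) and Serinc5 (0.953, 0.917). Of the other collagen chains Col1a1 (r = 0.928, rank 28) and Col1a2 (r = 0.919, rank 46) were nearest to Col3a1, followed by Col4a1 (r = 0.873, rank 115). Col5a2, which lies next to Col3a1 on the chromosome, was far from it on this measure, with r = 0.12, rank 3983 and Spearman's rho = 0.40. Its counts were low, at 60 to 101 in ConvD, 49 to 71 in GF+SCFA and 52 to 58 in GF livers. The 5 genes most like Col4a1 were Tyk2 (r = 0.973), Gpr97 (0.96), Col1a2 (0.958), Plekhb2 (0.949) and Col16a1 (0.948). Its partner Col4a2 had r = 0.931 and rank 14.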

How the data were processed

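Polyadenylated RNA of 9 livers was prepared with a strand-preserving Illumina TruSeq kit, per the labels' protocols. RSEM 1.2.23, Bowtie2 and the build mm9 are named in the submitters' processing notes. Expected counts were deposited by the authors without normalisation. TPM, named as such per the file headers, is the authors' scaling to gene length and library size. Expected counts were rounded and fitted with edgeR 4.0.16 (R 4.3.3) on all 9 livers, with a minimum count of 10 in filterByExpr, TMM factors of 0.935 to 1.06 and robust quasi-likelihood dispersions. Benjamini-Hochberg adjustment covered the 12037 genes of each comparison, and an adjusted p under 0.05 is called. The biological coefficient of variation was 10.6%. Livers of a group differed by more than counting noise (chi-square per degree of freedom 11.1 to 53.5), so none was a copy. The script was tested on simulated data.

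All 10 chains and the gene lists, tests and alternatives were chosen with earlier results of these data known. Genes are named as the 10 chains, as up to 5 called genes per list, by adjusted p in ConvD against GF, as fixed defining markers and as the 5 genes most like Col3a1 or Col4a1. Col18a1, and the genes named for ConvD against GF+SCFA alone, were chosen after their values were seen. Of 301 list entries, 298 were found, 288 by symbol and 10 by RefSeq accession. Promoter windows and chromosomes are those of RefSeq for GRCm38.p6, and no coordinate of the files was used.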

Additional observations from a re-analysis of the deposited data

How the results depend on the processing

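Replicate numbers did not pair the livers (same-number correlations -0.07 to 0.14), and with the replicate block 1 of 10 chains was called in ConvD against GF and 8 of 9, without Col3a1, in ConvD against GF+SCFA, as without it. In ConvD against GF 2 chains were higher with upper-quartile factors and 2 with library totals, which added Col4a2 (log2 fold change 0.34 and 0.36, edgeR adjusted p = 0.0387 and 0.0333). The count was 0 to 1 without single livers. In ConvD against GF+SCFA it was 7 with DESeq2 and 4 to 8 without single livers. In GF+SCFA against GF 9 to 10 chains had fitted values below 0 without single livers. Genes called in the pathway lists of ConvD against GF numbered 7 with only the 2 groups fitted, 6 with limma and 7 to 14 without single livers. Those of ConvD against GF+SCFA numbered 12 to 29 without single livers. The Col3a1 log2 ratio of ConvD over GF+SCFA was 0.85 with CPM, against 0.95 with TPM. Directions turned only in uncalled values. Without single livers, Col1a1 ranged from -0.44 to 0.04 in ConvD against GF (0.04 without GF replicate 2), Col3a1 from -0.08 to 0.19 (-0.08 without GF replicate 3 and -0.03 without ConvD replicate 1) and Col6a1 from -0.10 to 0.24 (-0.10 without GF replicate 1 and -0.02 without ConvD replicate 1). Col5a2 ranged from -0.05 to 0.53 in ConvD against GF+SCFA (-0.05 without ConvD replicate 3) and from -0.12 to 0.26 in GF+SCFA against GF (-0.12 without GF+SCFA replicate 1). The causes were not tested.

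Over all genes 714 were higher and 830 lower in ConvD against GF, but 1058 and 543 with upper-quartile factors, 1061 and 391 with library totals and 243 lower with limma. In ConvD against GF+SCFA 1136 were higher and 1080 lower, 1541 and 586 with library totals, 1515 and 752 with upper-quartile factors and 411 lower with limma. Upper-quartile factors moved the median gene by 0.06 and library totals by 0.08 in the first of these. Col1a1 and Col5a2 had a mean TPM under 1 and could not be fitted with limma. With 37 to 81 counts in ConvD and 57 to 103 in GF livers, the Col1a1 interval spans both directions in ConvD against GF.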
